A study of Mus musculus with 9 samples.

Results

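The passage of a reperfused mouse infarct from its inflammatory stage to its scar stage was followed by comparing 3 left ventricles taken 14 days after ischemia-reperfusion (I/R) with 3 taken 1 day after it. The members were chosen by their labels alone, as the columns of both times in a table of gene counts, which makes 6 of 9 libraries. All genes were used, and 14124 of the 38293 genes in the table had counts high enough to be tested. All mice, the 3 sham-operated ones included, were males of the C57BL/6 strain labelled 8 weeks old, with no genetic change named. Mice with I/R had the left anterior descending coronary artery tied for 1 hour and then released, and their tissue is labelled as the infarct region. The 1-day libraries come from mice 4, 5 and 6. The 14-day columns carry 1 common header and are told apart below by the letters A, B and C, which stand for no order or animal. Sham (mice 1, 2 and 3) serves only to place the levels. Whether 8 weeks is the age at surgery or at collection is not given in the labels, and neither is the time at which sham tissue was taken.

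In a healing infarct, neutrophils and then monocytes enter the dead muscle and clear it, while heart cells at the border and beyond carry stress programs. Fibroblasts divide, become matrix-producing cells and later settle into a collagen-rich scar, which is crosslinked and organised by small proteoglycans and glycoproteins. Bulk RNA of the region mixes all of these cells, so fewer cells of a type and less RNA per cell cannot be told apart in any result below.

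Levels are given as CPM, a gene's counts scaled to a common library size of 1e6 after trimmed-mean (TMM) scaling, which sets the bulk of genes equal between libraries. Log2 folds, their standard errors (SE) and Benjamini-Hochberg adjusted p-values come from edgeR's quasi-likelihood test over all 9 libraries. A gene is called when its adjusted p is under 0.05, and positive log2 folds mean higher at 14 days. Total counts ran from 20215781 to 36816818 per library, and from 7217019 to 15969149 without ribosomal RNA genes. The first principal component of log2 CPM (64.4% of the variance) put mice 4 and 5 at 78 and 78.7, mouse 6 at 37.2 and the 14-day libraries between −37.1 and −16.9. Mouse 6 thus lay nearer to the 14-day side than the other 1-day mice. The ventricular myosin light chain Myl2 stood at 975 to 1638 CPM at 1 day and 2419 to 3090 at 14 days. The atrial markers Myl7, Sln and Bmp10, all 7 adipocyte markers and 8 of 10 fast skeletal muscle markers were below the count filter. The other 4 of 7 atrial markers, Myl4, Nppa, Nr2f2 and Dkk3, were tested. Dkk3 rose from 1 to 14 days and the rest were not called. Against sham 3 of these 4 were called higher at 14 days, with a median log2 fold of 2.13.

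At 14 days 3547 genes were higher (25.1% of those tested) and 3788 lower (26.8%), which makes 7335 called genes or 51.9%. The median log2 fold was 0.72 among the genes that rose and −0.74 among those that fell, against 0.00 over all genes tested. A test against a change of 2-fold, rather than of 0, kept 257 higher and 369 lower. Without mouse 6 the test called 4049 genes higher and 4311 lower, and 3404 of the 3547 risers and 3691 of the 3788 fallers were still called that way. With scaling by total count only, the median log2 fold of all genes moved by −0.39, and 1066 genes were called higher and 5469 lower. Directions below therefore describe change relative to the bulk of genes, and small changes depend on that choice.

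**Figure D1:**
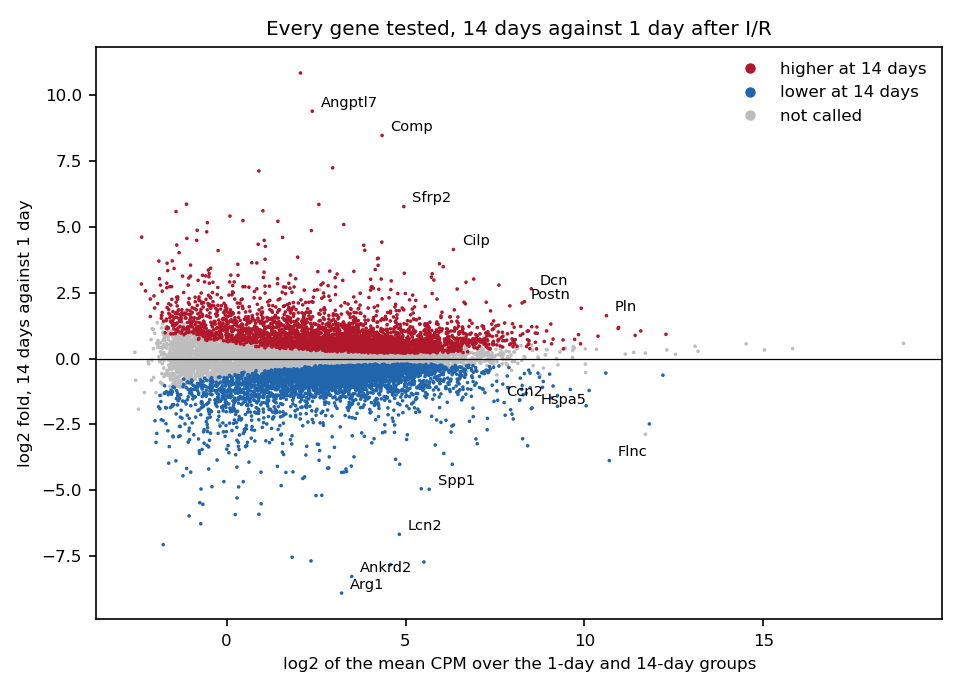
Each point is 1 of the 14124 genes tested, with the log2 of its mean CPM over both groups on the x axis and its log2 fold (14 days against 1 day) on the y axis. Called genes are red (3547 higher) or blue (3788 lower), and the largest changes lie at middle levels, from Angptl7 and Comp above to Arg1 and Ankrd2 below.

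The genes that rose most from 1 to 14 days encode secreted and matrix proteins. Angptl7, an angiopoietin-like secreted protein, was at 0, 0 and 0.0448 CPM in mice 4, 5 and 6 and at 5.96, 9.50 and 15.9 CPM in libraries A, B and C. All 3 mice at 1 day together held 1 read of it, against 885 at 14 days, a ratio of 928 with a 95% counting interval from 166 to 36688.7. Its fitted log2 fold was 9.39 ± 0.68 (SE, n = 3 per group, adjusted p = 9.46e-06 in edgeR). Comp, a pentameric glycoprotein of cartilage and tendon that binds collagen, went from 0.113, 0.119 and 0.0896 CPM to 23.3, 31.4 and 66.8 CPM (3378 reads against 10, ratio 354, interval from 192 to 739). Col8a2, a chain of the short network collagen VIII, rose from at most 0.119 CPM to 9.45, 15.0 and 22 CPM. Every 14-day library was far above every 1-day library for these 3 genes.

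Fmod (fibromodulin, a small proteoglycan that binds collagen fibrils) was at 0.43, 0 and 0 CPM at 1 day and at 5.99, 10.3 and 19.3 CPM at 14 days. Sfrp2, a secreted modulator of Wnt signalling, rose from 1.15, 1.43 and 0.672 CPM to 31.2, 50.1 and 101 CPM (log2 fold 5.77 ± 0.51, SE, adjusted p = 5.56e-05 in edgeR). Cilp, a matrix protein named for the intermediate layer of cartilage, rose from 10.1, 8.58 and 7.12 CPM to 72.3, 152 and 234 CPM. The other 6 of the 12 largest rises were Dkk3, Mfap4, Adamtsl2, Islr, Itih5 and Itgbl1, with log2 folds from 3.79 to 5.09. All 12 were also called above sham at 14 days, where 8.75% of tested genes were called higher and 5.64% lower. In all 12, library A was the lowest and C the highest of the 14-day libraries, an order held by 25.3% of all tested genes.

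Arg1, Ankrd2, Chil3 and Lcn2 led the 12 genes with the largest falls. Arg1 (arginase, made by early wound macrophages) was at 20.5, 23.5 and 11.5 CPM at 1 day and at 0, 0.0293 and 0.0818 CPM at 14 days (1755 reads against 3, ratio 558, interval from 191 to 2708.3). Ankrd2, a muscle ankyrin repeat protein induced by stretch, went from 23.7, 27.6 and 16.3 CPM to at most 0.0879 CPM (ratio 335, interval from 153 to 913). Chil3, a chitinase-like protein of myeloid cells, went from 12, 10.2 and 8.51 CPM to at most 0.0818 CPM (ratio 233, interval from 90.8 to 858). No 14-day library came near a 1-day library in these 3 genes. Lcn2, a neutrophil granule protein, fell from 61.7, 75.4 and 31.5 CPM to 0.623, 0.557 and 0.45 CPM (log2 fold −6.67 ± 0.37, SE, adjusted p = 4.73e-06 in edgeR). The rest of the 12 were Mmp9, Slfn4, Spp1, Adam8, Ccl2, Sdf2l1, Gadd45g and Ccl7, with log2 folds from −5.20 to −4.15. Of the 12, Spp1 (osteopontin) was still called above sham at 14 days, at 1.63, 3.25 and 4.62 CPM against a sham mean of 0.0829 CPM. The other 11 were not called apart from sham.

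**Figure D2:**
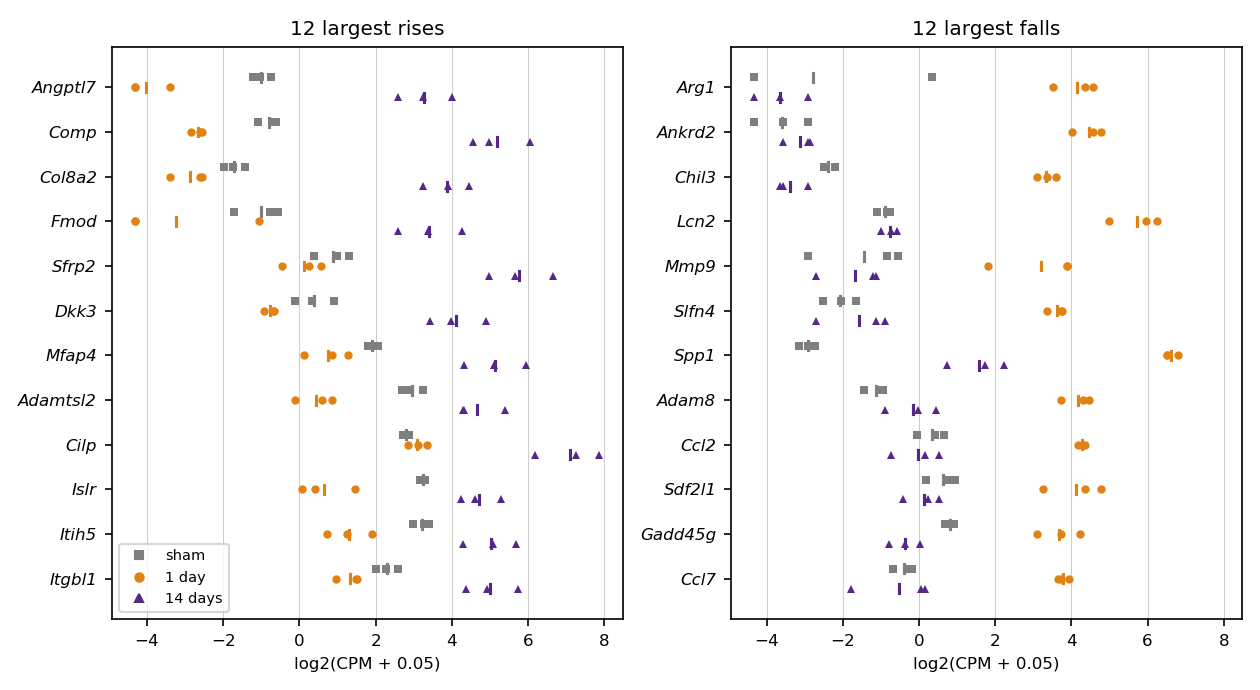
The x axis is log2(CPM + 0.05) and each mark is 1 library of sham (squares), 1 day (circles) or 14 days (triangles), with a bar at the group mean, for the 12 largest rises and the 12 largest falls. For the rises the 14-day libraries lie right of sham, and for the falls they lie near sham, with Spp1 between sham and 1 day.

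Neutrophil markers were nearly back to sham levels at 14 days. Of 12 tested markers 11 fell and none rose, with a median log2 fold of −4.69. The summed CPM of the 12 was 138, 157 and 59.1 in mice 4, 5 and 6, then 3.84, 4.78 and 6.62 in A, B and C, against 2.93 to 7.22 in sham. S100a9, a subunit of calprotectin, went from 10, 12.4 and 2.82 CPM to 0.242, 0.322 and 0.531 CPM. Csf3r, the receptor for the growth factor that mobilises neutrophils, fell from 27.0, 27.4 and 9.05 CPM to 1.04, 1.08 and 1.72 CPM (log2 fold −4.08 ± 0.46, SE, adjusted p = 1.75e-04 in edgeR). Mouse 6 was the lowest 1-day mouse in both genes, yet above every 14-day library. The defining granulocyte genes Ly6g, Ngp, Camp and Ltf were under the count filter.

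Among markers of recruited monocytes and early macrophages 10 of 14 fell and none rose (median log2 fold −1.64). Ccr2, the receptor that draws monocytes out of the blood, fell from 32.2, 33.5 and 33.2 CPM to 5.75, 13.2 and 16.2 CPM, and remained above the sham mean of 2.81 CPM (adjusted p = 0.00724 against sham). F10, the clotting factor X, fell from 2.67, 1.91 and 2.60 CPM to at most 0.0693 CPM. Among markers of resident macrophages 3 of 12 rose (25%) and 1 fell (8.33%), against 25.1% and 26.8% of all tested genes. Their median log2 fold was 0.33, and −0.06 with scaling by total count only. Folr2, Igf1 and Gas6 rose, and Lyve1, Timd4, Cd163, Mrc1 and Mertk were among those not called. F13a1 fell, a call that was lost without mouse 4 (adjusted p = 0.117 in edgeR). The growth factor Igf1 rose from between 10.2 and 11.1 CPM to 20.3, 40.2 and 51.2 CPM. Gas6, which bridges dying cells to macrophage receptors, rose from 27.1, 25.2 and 36.7 CPM to 53.4, 60.6 and 78.0 CPM.

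Of 13 lysosomal and lipid-handling macrophage genes 5 rose (38.5%) and 4 fell (30.8%), against 25.1% and 26.8% of all tested genes. Their median log2 fold was 0.20, and −0.19 with scaling by total count only. Cd9, Ctsd, Ctsk, Lpl and Apoe rose, Spp1, Lgals3, Cd63 and Cd68 fell, and Trem2 and Gpnmb were not called. Lpl is also on the list of fatty acid use. With scaling by total count only 2 rose and 4 fell, and the calls of Lpl and Ctsd were lost. Apoe, a lipid carrier, rose from 37.5, 33.2 and 39.3 CPM to 112, 149 and 224 CPM (log2 fold 2.14 ± 0.22, SE, adjusted p = 4.65e-05 in edgeR). Ctsk, a collagen-degrading cathepsin, rose from 2.15, 1.71 and 1.97 CPM to 5.44, 7.89 and 12.8 CPM. Spp1, on the same list, fell as given above.

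Chemokines, interleukins and growth factors of inflammation fell in 17 of 24 tested genes and rose in 2 (median log2 fold −1.66). Ccl2 and Ccl7, ligands of Ccr2, went from between 18.1 and 20.4 CPM to at most 1.39 CPM and from between 12.5 and 15.2 CPM to at most 1.06 CPM. Il1b, the central inflammasome product, fell from 4.62, 6.12 and 4.26 CPM to 0.208, 0.498 and 1.39 CPM. Cxcl5, a neutrophil attractant, fell from 11.4, 18.9 and 10.4 CPM to 0.104, 1.47 and 1.47 CPM. These 4 ligands were not called apart from sham at 14 days, while Il6, at 0.312, 0.293 and 0.613 CPM, was still above it (sham mean 0.0279 CPM, adjusted p = 0.0154). Ccl8, which rose from at most 0.874 CPM to 0.693, 3.17 and 3.56 CPM (adjusted p = 0.0153), was not called without mouse 4 (0.0511), mouse 6 (0.0584) or library B (0.0543).

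Antigen presentation and complement moved the other way. Of 7 tested MHC class II genes 5 rose and none fell (median log2 fold 1.21), and 1 was above sham at 14 days. Against sham the list median was −0.51 at 1 day and 0.76 at 14 days. H2-Aa, an alpha chain, rose from 13.6, 12.5 and 20.7 CPM to 36.0, 59.5 and 76.5 CPM (log2 fold 1.88 ± 0.29, SE, adjusted p = 7.33e-04 in edgeR). Its sham mean was 30.5 CPM. It was called below sham at 1 day (adjusted p = 0.0181 in edgeR) and was not called against sham at 14 days (0.0591). In all 7 library A was the lowest and C the highest at 14 days. Of 14 complement genes 12 rose and 1 fell (median log2 fold 1.83), and 11 were above sham at 14 days. C4b, of the classical pathway, rose from 4.19, 3.53 and 5.42 CPM to 13.4, 28.9 and 44.5 CPM. The receptor for the C5a fragment, C5ar1, is carried by phagocytes and was the 1 member that fell, from 9.98, 11.7 and 7.53 CPM to 2.49, 3.66 and 4.09 CPM. Of 18 interferon-stimulated genes 7 rose and 1 fell, with a median log2 fold of 0.20 that was −0.18 with scaling by total count only.

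Other immune cells were thinly covered. Of 14 T and NK cell markers 2 passed the count filter, and the T cell receptor and CD3 genes were below it. Ighm, the immunoglobulin heavy chain of B cells, rose from 1.99, 1.71 and 2.24 CPM to 5.33, 15.8 and 12.2 CPM (log2 fold 2.49 ± 0.35, SE, adjusted p = 3.81e-04 in edgeR). Cpa3, a mast cell protease, rose from at most 0.226 CPM to 0.554, 0.791 and 0.613 CPM. It was the 1 called gene of 3 tested mast cell markers, whose median log2 fold was 0.08 and −0.30 with scaling by total count only. None of 6 tested dendritic cell markers was called. Of 5 tested red blood cell markers 2 rose, and Hba-a1, Hba-a2 and Alas2 were not called. The hemoglobin gene Hbb-bs rose from 35.1, 36.5 and 51.4 CPM to 85.6, 72.9 and 84.9 CPM. Hbb-bt rose from 4.35, 4.73 and 5.91 CPM to 11.3, 10.2 and 11 CPM. Their sham means were 87.4 and 13.8 CPM. Both were called below sham at 1 day (adjusted p = 0.00109 and 3.34e-04 in edgeR) and not apart from it at 14 days (0.753 and 0.285). The part of remaining blood in the other results was not tested.

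**Figure D3:**
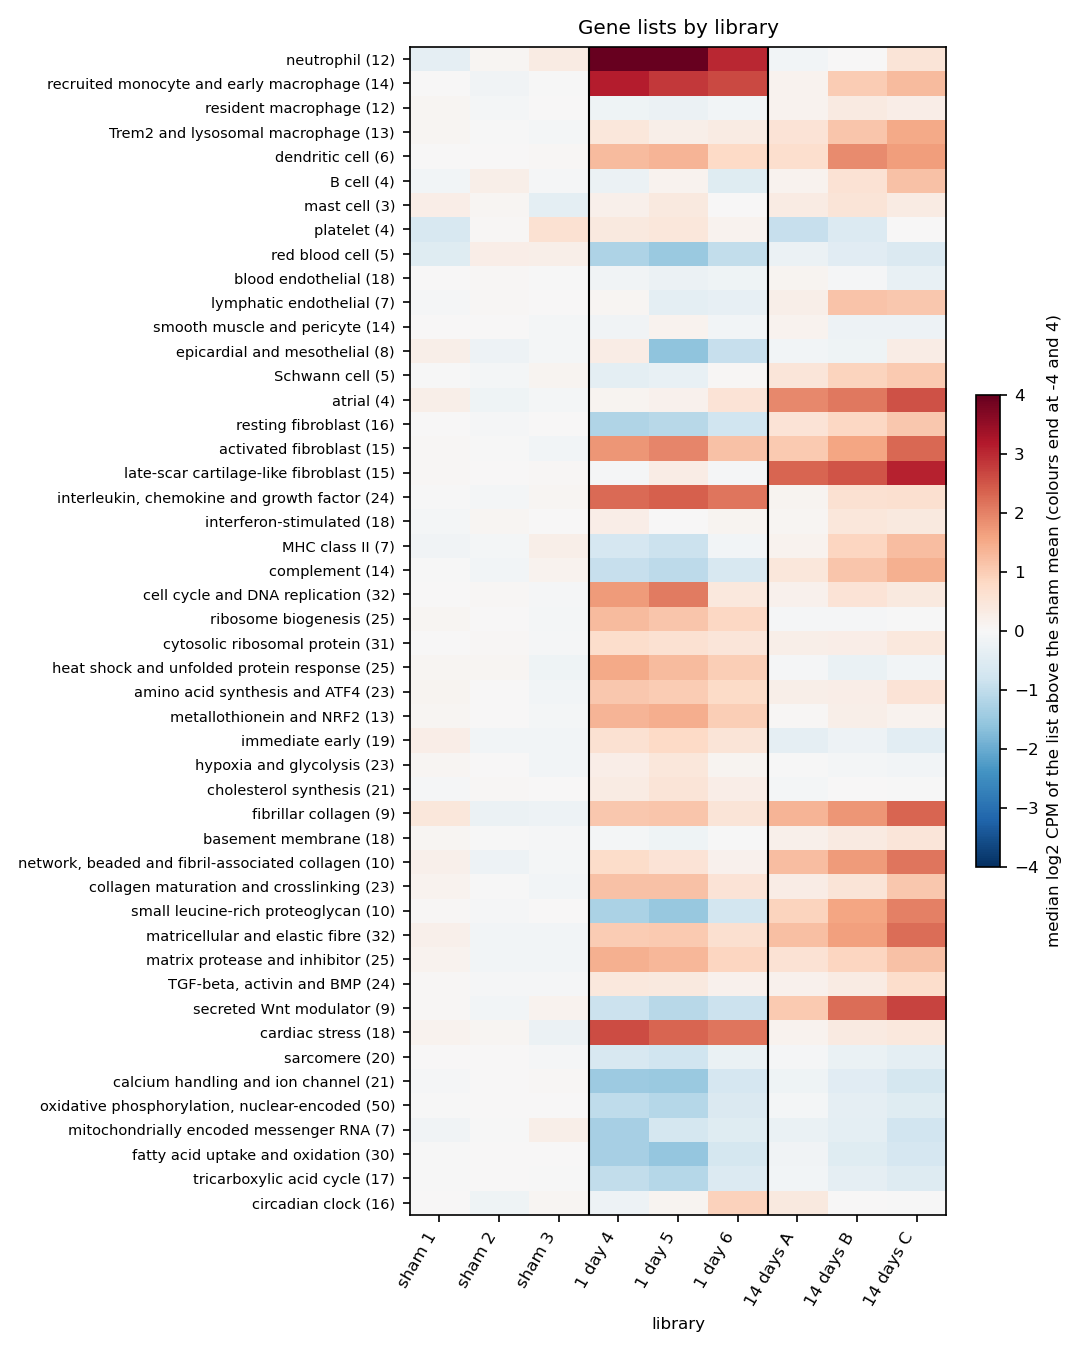
Each row is a gene list with its number of tested genes in brackets and each column a library; the colour is the median over the list of log2 CPM minus the sham mean. The neutrophil, cytokine, heat shock and cardiac stress lists are red at 1 day and pale at 14 days. The fibrillar collagen, small leucine-rich proteoglycan and secreted Wnt modulator lists are darkest in library C, and the oxidative phosphorylation, fatty acid and tricarboxylic acid cycle lists are blue at 1 day and, of the I/R libraries, palest in A.

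Of 32 tested genes of the cell cycle and of DNA replication 26 fell and none rose (median log2 fold −1.22), and none was called apart from sham at 14 days. Their summed level was 273, 290.3 and 155 CPM in mice 4, 5 and 6 and 134, 144 and 128 CPM in A, B and C, so mouse 6 lay close to the 14-day libraries. Without mouse 6, 30 fell and 1 rose (median −1.54). Mcm5, a subunit of the helicase that opens replication origins, fell from 13.8, 10.2 and 6.86 CPM to 2.01, 1.82 and 1.92 CPM (log2 fold −2.44 ± 0.24, SE, adjusted p = 3.40e-05 in edgeR). Ccne1, the cyclin of entry into S phase, fell from 1.65, 2.14 and 1.25 CPM to 0.45, 0.528 and 0.368 CPM. Birc5 (survivin), which acts in chromosome segregation, fell from 1.54, 1.75 and 1.25 CPM to 0.416, 0.498 and 0.531 CPM. Mouse 6 was the lowest 1-day mouse in all 3 genes and above the 14-day libraries in each. Mki67, the proliferation antigen, was at 30.4, 41.2 and 10.6 CPM in mice 4, 5 and 6 and at 9.70, 14.9 and 12.5 CPM in A, B and C, so its groups overlapped. Its call (log2 fold −1.15 ± 0.39, SE, adjusted p = 0.0353 in edgeR) was lost without mouse 4 (0.0654), mouse 5 (0.123), library A (0.158) or library C (0.108).

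Among called cell cycle genes that have an entry in the promoter table, Mcm5, Ccne1 and Birc5 fell most, and their promoters are shown to let their elements be compared, from 250 bases before to 50 after the RefSeq transcription start in GRCm38.p6. They lie at chr8:75109259-75109558 (plus strand), chr7:38107441-38107740 (minus strand) and chr11:117848987-117849286 (plus strand). Capitals mark an E2F site (TTTGGCGC or TTTCCCGC) and the CCAAT box bound by NF-Y, on either strand.
Mcm5: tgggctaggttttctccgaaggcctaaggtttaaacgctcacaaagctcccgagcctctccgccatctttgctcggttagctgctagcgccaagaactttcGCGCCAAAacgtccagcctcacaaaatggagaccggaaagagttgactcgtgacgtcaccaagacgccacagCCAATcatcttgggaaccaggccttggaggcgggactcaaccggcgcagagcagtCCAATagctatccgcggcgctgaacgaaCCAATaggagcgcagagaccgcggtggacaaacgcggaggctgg
Ccne1: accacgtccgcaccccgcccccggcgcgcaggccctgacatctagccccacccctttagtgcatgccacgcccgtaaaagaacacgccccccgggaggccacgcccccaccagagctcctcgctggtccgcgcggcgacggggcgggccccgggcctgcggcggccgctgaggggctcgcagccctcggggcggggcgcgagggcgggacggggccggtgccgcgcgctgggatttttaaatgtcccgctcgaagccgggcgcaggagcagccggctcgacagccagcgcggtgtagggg
Birc5: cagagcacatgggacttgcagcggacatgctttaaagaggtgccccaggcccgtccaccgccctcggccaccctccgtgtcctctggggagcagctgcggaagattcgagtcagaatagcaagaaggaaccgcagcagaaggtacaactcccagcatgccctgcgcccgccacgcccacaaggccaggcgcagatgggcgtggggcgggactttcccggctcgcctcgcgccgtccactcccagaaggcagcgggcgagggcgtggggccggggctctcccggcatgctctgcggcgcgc

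The Mcm5 window holds 1 E2F site (TTTGGCGC, read on the minus strand) and 3 CCAAT boxes, and neither element is in the windows of Ccne1 and Birc5. CCAAT was in 83.3% of the 24 cell cycle promoters found, against 38.5% of 10266 promoters of tested genes. The letters TTTGAA of the cell cycle homology region were in 45.8% against 11.6%, and an E2F site of either form in 20.8% against 3.04%. These shares describe a short list and name no bound factor.

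All 25 tested ribosome biogenesis genes, whose products build ribosomal subunits, fell (median log2 fold −1.25). Of 31 cytosolic ribosomal protein genes 18 fell and 13 were not called (median −0.33), and 12 were still above sham at 14 days. None of either list rose. Rrp12, needed to export ribosomal subunits, fell from 55.4, 44.4 and 32.5 CPM to 7.24, 7.01 and 8.91 CPM (log2 fold −2.52 ± 0.18, SE, adjusted p = 6.53e-06 in edgeR). Myc, a driver of ribosome synthesis, fell from 11, 13.8 and 8.02 CPM to 1.77, 1.85 and 2.49 CPM and remained above the sham mean of 0.85 CPM (adjusted p = 0.015 against sham). The E-box CACGTG, a motif that Myc can bind, was in 31.6% of 19 ribosome biogenesis promoters and in 10.2% of all.

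Protein-folding and stress programs fell too. Of 25 genes of the heat shock and unfolded protein responses 18 fell and none rose (median log2 fold −1.19). Hspb1, a small heat shock protein, fell from 151, 129 and 92.9 CPM to 11.1, 8.94 and 10.8 CPM (log2 fold −3.60 ± 0.20, SE, adjusted p = 3.50e-06 in edgeR). Hspa5, the main chaperone of the endoplasmic reticulum, fell from 745, 572 and 432 CPM to 186, 146 and 148 CPM. Creld2, induced by stress of that compartment, fell from 48.2, 30.0 and 11.8 CPM to 3.36, 3.11 and 3.48 CPM. Pdia6, a disulfide isomerase, fell from 117, 95.2 and 78.2 CPM to 24.9, 24.9 and 30.6 CPM. Mouse 4 was the highest and mouse 6 the lowest 1-day mouse in all 4, and every 1-day mouse was above every 14-day library.

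The endoplasmic reticulum stress element, CCAAT and CCACG with 9 bases between them, was in 5 of 21 promoters of this list (23.8%) and in 0.146% of all promoters of tested genes. These 5 genes, Creld2, Hspa5, Pdia6, Hsp90b1 and Calr, fell by log2 folds from −3.20 to −1.29. The windows of the 3 with the largest falls were chosen after their values were seen, with the element in capitals (on the minus strand in Creld2). They lie at chr15:88819396-88819695, chr2:34771840-34772139 and chr12:17266339-17266638, all for genes on the plus strand, in GRCm38.p6.
Creld2: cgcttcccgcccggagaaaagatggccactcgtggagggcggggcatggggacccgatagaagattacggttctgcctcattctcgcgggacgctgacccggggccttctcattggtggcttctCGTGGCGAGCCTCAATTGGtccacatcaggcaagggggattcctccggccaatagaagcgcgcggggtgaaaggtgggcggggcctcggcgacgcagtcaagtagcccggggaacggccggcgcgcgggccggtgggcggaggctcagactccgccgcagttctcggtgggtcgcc
Hspa5: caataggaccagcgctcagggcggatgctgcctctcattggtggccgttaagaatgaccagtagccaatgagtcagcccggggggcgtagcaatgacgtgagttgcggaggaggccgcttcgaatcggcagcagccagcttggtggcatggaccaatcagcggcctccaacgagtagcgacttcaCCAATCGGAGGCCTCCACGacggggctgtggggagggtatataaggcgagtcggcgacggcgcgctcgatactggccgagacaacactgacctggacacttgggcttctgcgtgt
Pdia6: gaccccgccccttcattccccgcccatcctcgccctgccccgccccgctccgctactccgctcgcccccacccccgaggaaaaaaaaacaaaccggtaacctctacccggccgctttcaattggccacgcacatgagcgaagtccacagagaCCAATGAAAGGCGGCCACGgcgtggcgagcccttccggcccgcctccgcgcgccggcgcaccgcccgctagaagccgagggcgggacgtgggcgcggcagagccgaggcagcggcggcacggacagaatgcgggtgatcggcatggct

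In Hspa5 the element begins 65 bases before the start and in Creld2 126 bases before it. The same match was in 10 of 2841 promoters of genes that fell (0.352%) and in 2 of 2603 of those that rose (0.0768%). The promoters of Creld2, Hspa5, Pdia6, Hsp90b1 and Calr are among those 10. The contrast therefore counts them again and is not independent of the share given for their list.

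Of 23 genes of amino acid synthesis and the ATF4 response 15 fell and none rose (median log2 fold −0.78). Psat1, of serine synthesis, fell from 18, 15.7 and 7.39 CPM to 1.14, 1.85 and 2.33 CPM. Of 13 metallothionein and NRF2 target genes 10 fell and 2 rose (median −1.29). Hmox1, the heme-degrading enzyme, fell from 34.4, 39.8 and 18.8 CPM to 2.60, 4.19 and 4.58 CPM. Slc7a11, the cystine importer, fell from between 1.70 and 1.74 CPM to between 0.173 and 0.286 CPM, still above the sham mean of 0.0364 CPM (adjusted p = 0.0292). Immediate early genes fell in 10 of 19 and rose in 2. Ier3 fell from 27.0, 37.5 and 25.2 CPM to 5.51, 6.01 and 6.50 CPM, while Dusp1, a phosphatase that turns off MAP kinases, rose from 7.67, 7.55 and 12.3 CPM to 28.6, 26.1 and 20.5 CPM. Of 23 hypoxia and glycolysis genes 11 fell and 4 rose. The transporters of glucose and lactate were among those that fell, with Slc2a1 going from 18.2, 19.0 and 15.2 CPM to 5.37, 5.75 and 6.13 CPM and Slc16a3 from 8.62, 8.02 and 5.69 CPM to 0.727, 1.20 and 1.96 CPM. Of 21 cholesterol synthesis genes 10 fell and 2 rose (median log2 fold −0.29).

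Fibroblast markers of the resting state rose, while those of the activated state moved in both directions. Of 16 resting fibroblast markers 14 rose and none fell (median log2 fold 2.06), and the same 14 and 0 were counted with scaling by total count only. Dcn (decorin, a proteoglycan that binds collagen and TGF-beta) rose from 77.8, 94.4 and 129 CPM to 423, 591 and 877 CPM (log2 fold 2.65 ± 0.27, SE, adjusted p = 4.33e-05 in edgeR). Pi16, a marker of progenitor-like fibroblasts, rose from 5.25, 3.49 and 9.36 CPM to 35.9, 49.9 and 83.3 CPM. Their sham means were 226 and 21.4 CPM, so every 1-day mouse lay below the sham mean and every 14-day library above it. Of 15 activated fibroblast markers 8 rose and 4 fell (median 0.93), and without mouse 6 the counts were 5 and 4. With scaling by total count only 3 of them rose and 4 fell (median 0.57). Postn (periostin, of activated fibroblasts) was at 139.6, 127 and 78.4 CPM at 1 day and at 219, 503 and 768 CPM at 14 days, with no overlap. Its call (adjusted p = 0.00731) was lost without mouse 6 (0.0578) and with scaling by total count only (0.0771). Cthrc1, of collagen-producing fibroblasts, rose from 1.15, 1.19 and 0.717 CPM to 3.46, 4.51 and 10.2 CPM, a call that was lost with scaling by total count only (log2 fold 2.17, adjusted p = 0.0509 in edgeR). Acta2, smooth muscle actin, which also marks myofibroblasts, was at 30.2, 38.4 and 28.3 CPM and at 38.2, 34.5 and 28.7 CPM, which was not called (log2 fold 0.07 ± 0.15, SE, −0.32 with scaling by total count only).

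Late-scar fibroblast markers, many of them known from cartilage and tendon, rose in 12 of 15 and fell in 2 (median log2 fold 2.10), and 11 were above sham at 14 days. Meox1, a transcription factor of activated fibroblasts, rose from 10.2, 9.73 and 12.1 CPM to 14.5, 21.2 and 35.1 CPM. Clu (clusterin), on the same list, fell from 378, 470 and 506 CPM to 149.8, 160.2 and 213 CPM (log2 fold −1.37 ± 0.18, SE, adjusted p = 1.35e-04 in edgeR). The 3 called members of the late-scar and fibrillar collagen lists with the largest changes and a promoter in the table were Angptl7, Fmod and Col11a1. Their windows are shown beside those of the genes that fell. They lie at chr4:148500413-148500712 (minus strand), chr1:134037004-134037303 (plus strand) and chr3:114030290-114030589 (plus strand), with CCAAT in capitals (ATTGG on the minus strand).
Angptl7: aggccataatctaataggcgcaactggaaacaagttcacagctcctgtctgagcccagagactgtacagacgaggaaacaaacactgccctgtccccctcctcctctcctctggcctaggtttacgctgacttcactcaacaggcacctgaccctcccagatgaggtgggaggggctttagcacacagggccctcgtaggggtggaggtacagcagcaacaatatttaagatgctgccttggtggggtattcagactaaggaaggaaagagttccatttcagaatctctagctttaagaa
Fmod: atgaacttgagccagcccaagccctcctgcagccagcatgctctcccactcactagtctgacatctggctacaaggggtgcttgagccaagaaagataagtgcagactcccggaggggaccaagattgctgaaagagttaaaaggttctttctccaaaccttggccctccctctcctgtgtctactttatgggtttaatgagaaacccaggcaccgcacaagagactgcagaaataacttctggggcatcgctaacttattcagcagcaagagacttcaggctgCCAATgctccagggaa
Col11a1: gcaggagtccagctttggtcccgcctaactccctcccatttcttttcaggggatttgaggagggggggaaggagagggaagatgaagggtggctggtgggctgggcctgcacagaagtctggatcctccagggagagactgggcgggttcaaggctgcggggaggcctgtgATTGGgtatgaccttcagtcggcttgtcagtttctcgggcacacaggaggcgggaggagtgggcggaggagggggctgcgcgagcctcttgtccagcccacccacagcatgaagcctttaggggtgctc

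The Angptl7 window holds no CCAAT, and those of Fmod and Col11a1 hold 1 each, in Fmod after the start. Of 9 late-scar promoters 2 held CCAAT (22.2%, against 38.5% over all). None held an E2F site or TTTGAA, which were in 3.04% and 11.6% of all. These 9 promoters are too few to set such shares apart from those over all.

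The collagens did not move as a block. Of 9 fibrillar collagen genes 3 rose and 3 fell (33.3% each, against 25.1% higher and 26.8% lower over all tested genes). Col3a1, of the early fine fibrils, rose from 425, 477 and 312 CPM to 878, 1442 and 2241 CPM (log2 fold 1.91 ± 0.41, SE, adjusted p = 0.00359 in edgeR). Col1a1, of the main scar collagen, was at 110.4, 131 and 75.3 CPM and at 129, 173 and 257 CPM. It was not called (log2 fold 0.82 ± 0.44, SE, adjusted p = 0.15), with library A below mouse 5. Its partner Col1a2 was called (adjusted p = 0.0193) but not without mouse 6 (0.111) or library C (0.0603). Col11a1, a minor fibrillar collagen of cartilage, rose from between 0.0448 and 0.0794 CPM to 2.01, 1.82 and 4.21 CPM (223 reads against 6, ratio 39.0, interval from 17.6 to 107). Of 10 network, beaded and fibril-associated collagens 7 rose and none fell (median log2 fold 1.14), with Col14a1 going from 10.5, 11.1 and 9.59 CPM to 48.8, 91.9 and 150.1 CPM. Col8a1, the partner chain of Col8a2, was called at a log2 fold of 0.93 (adjusted p = 0.012) but not without mouse 6 (0.0718).

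Basement membrane chains split by type: 8 of 18 rose (44.4%) and 4 fell (22.2%), against 25.1% and 26.8% of all tested genes. Their median log2 fold was 0.28, and −0.11 with scaling by total count only. Col4a1 and Col4a2, the common collagen IV chains, fell from 879, 778 and 591 CPM to 355, 372 and 368 CPM and from 562, 475 and 376 CPM to 197, 189.9 and 185 CPM. Col4a3 and Col4a4, chains of another collagen IV trimer, rose from 1.83, 1.07 and 1.70 CPM to 10.5, 11.8 and 12.1 CPM and from 1.47, 1.55 and 2.42 CPM to 8.34, 8.56 and 9.89 CPM. The groups of these 4 genes did not overlap. Lama2, the laminin chain of muscle fibres, rose from 79.5, 74.3 and 98.2 CPM to 175, 195 and 222 CPM.

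Small leucine-rich proteoglycans, which set the width and spacing of collagen fibrils, rose in 9 of 10 tested genes (median log2 fold 2.77), and 9 were above sham at 14 days. Omd (osteomodulin) rose from between 0.0448 and 0.119 CPM to 2.94, 3.63 and 5.31 CPM (339 reads against 7, ratio 50.8, interval from 24.4 to 127). Aspn (asporin) rose from 8.71, 12.7 and 11.4 CPM to 73.0, 108 and 185 CPM (log2 fold 3.49 ± 0.32, SE, adjusted p = 5.73e-05 in edgeR). Lum (lumican) rose from 20, 25.1 and 27.1 CPM to 87.9, 142 and 219.8 CPM. No 1-day mouse reached a 14-day library in these 3 genes.

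Of 32 matricellular and elastic fibre genes 20 rose and 7 fell (median log2 fold 1.11), and 24 were above sham at 14 days. Eln (elastin) rose from 3.60, 2.74 and 2.37 CPM to 24.0, 24.1 and 55.9 CPM, and Fbln1 (fibulin 1) from 8.87, 6.95 and 12.4 CPM to 70.6, 108 and 164 CPM. Tnc (tenascin C, of early wound matrix) fell from 157, 143 and 106 CPM to 8.31, 16.9 and 33.7 CPM and was still above the sham mean of 2.89 CPM (adjusted p = 0.0205). Prg4 (lubricin) fell from 53.1, 59.9 and 34.8 CPM to 2.7, 3.28 and 4.58 CPM (log2 fold −3.82 ± 0.24, SE, adjusted p = 4.98e-06 in edgeR). Within the CCN family, Ccn2 (connective tissue growth factor) fell from 346, 327 and 186 CPM to 81.8, 67.6 and 138 CPM, and Ccn5, which lacks the C-terminal domain of the others, rose from 4.14, 6.47 and 3.27 CPM to 17.5, 21 and 50.2 CPM. Fn1 (fibronectin) was high at both times, at 269.9, 265 and 214 CPM and at 117, 199.6 and 314 CPM, and was not called.

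Of 23 collagen maturation and crosslinking genes 8 fell (34.8%) and 6 rose (26.1%), shares near the 26.8% and 25.1% of all tested genes, with a median log2 fold of 0.14 that was −0.24 with scaling by total count only. Tgm2, a crosslinking transglutaminase, fell from 553, 434 and 297 CPM to 85.9, 79.8 and 96.8 CPM, and Loxl4, a lysyl oxidase, from 6.06, 4.57 and 3.32 CPM to 0.693, 0.997 and 1.39 CPM. Lox itself was not called (39.8, 45.4 and 15.1 CPM against 30.3, 43.6 and 74.2 CPM) and was above the sham mean of 5.22 CPM (adjusted p = 0.0169 against sham). Of 25 matrix proteases and inhibitors 13 fell and 8 rose (median −0.66). The neutrophil gelatinase Mmp9 fell from 14.7, 14.8 and 3.45 CPM to 0.104, 0.381 and 0.409 CPM, and Mmp2, the gelatinase of mesenchymal cells, rose from 11, 10.9 and 15.6 CPM to 58.3, 101 and 135 CPM. Among their inhibitors Timp1 fell from 68.4, 66.2 and 40.5 CPM to 4.16, 6.98 and 9.93 CPM, and Timp2 rose from 15.9, 18.8 and 22.2 CPM to 53.5, 73.3 and 97.3 CPM.

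**Figure D4:**
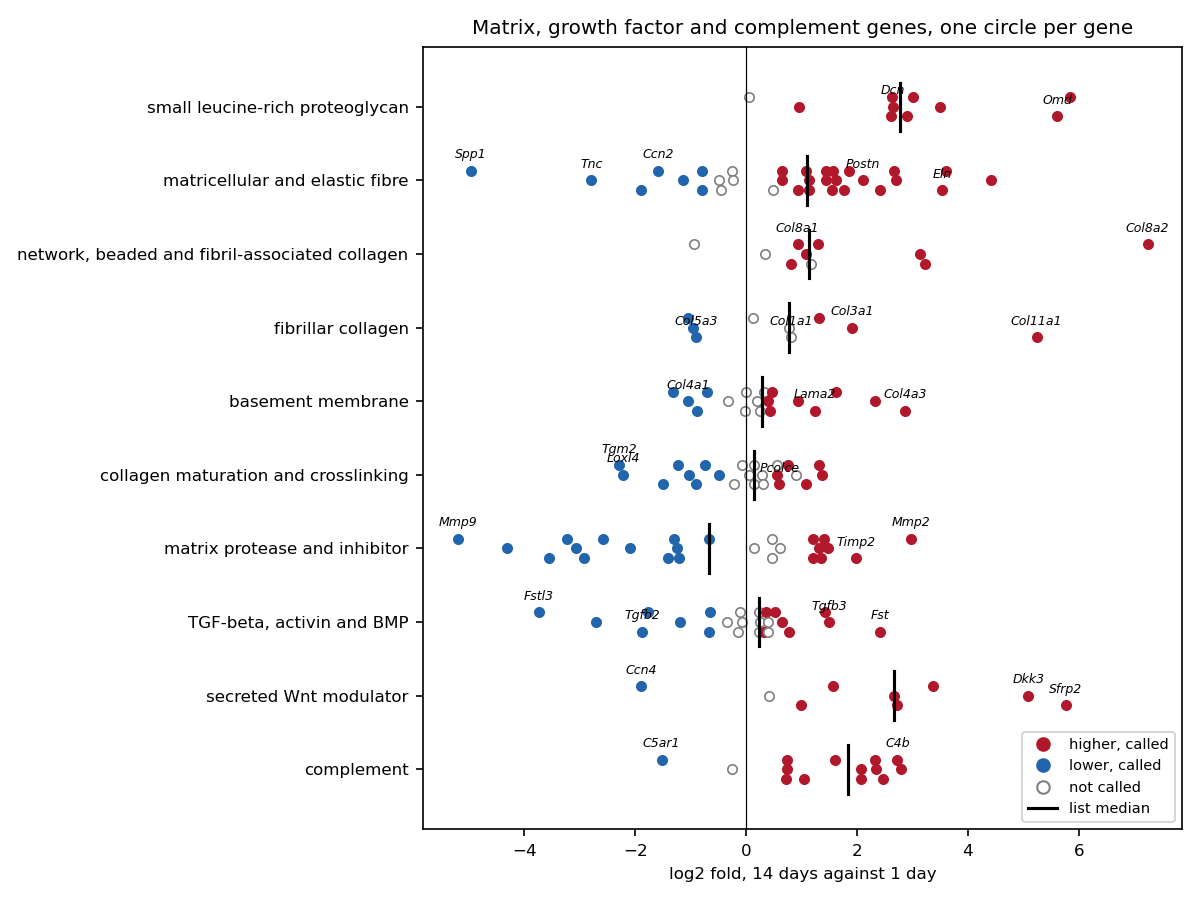
Each circle is 1 tested gene, placed by its log2 fold (14 days against 1 day) on the x axis in the row of its list, filled red or blue where called and open where not, with a black bar at the list median. Proteoglycans, Wnt modulators and complement lie mostly right of 0, while fibrillar collagens, basement membrane, crosslinking, protease and TGF-beta genes lie on both sides.

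Of 24 genes of the TGF-beta family and its regulators 8 rose (33.3%) and 7 fell (29.2%), not far from the 25.1% and 26.8% of all tested genes, with a median log2 fold of 0.23 that was −0.14 with scaling by total count only. Tgfb1 and Tgfb2 fell, from 10.4, 11.3 and 6.63 CPM to 3.64, 4.34 and 4.5 CPM and from 43.7, 39.8 and 23.4 CPM to 6.54, 9.47 and 13.5 CPM. Tgfb3 rose from 11.1, 10.8 and 9.81 CPM to 20.9, 29.0 and 40.2 CPM (log2 fold 1.5 ± 0.21, SE, adjusted p = 3.24e-04 in edgeR). Inhba, the activin A subunit, fell from 3.37, 2.82 and 2.20 CPM to 0.312, 0.264 and 0.777 CPM. Of the antagonists that bind activin, Fstl3 fell from 26.8, 23.3 and 15.5 CPM to 1.42, 1.55 and 2.04 CPM and Fst (follistatin) rose from 0.43, 0.238 and 0.269 CPM to 1.18, 1.96 and 2.21 CPM. Secreted Wnt modulators rose in 7 of 9 genes and fell in 1 (median 2.67), with Sfrp1 going from 2.40, 3.30 and 3.85 CPM to 15.1, 34.4 and 47.8 CPM and Ccn4 falling from 16.3, 16.3 and 7.17 CPM to 2.35, 2.76 and 5.89 CPM.

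Of 18 blood endothelial genes 5 rose (27.8%) and 2 fell (11.1%), against 25.1% and 26.8% of all tested genes. Their median log2 fold was 0.09, and −0.31 with scaling by total count only. Pecam1, the pan-endothelial adhesion molecule, was at 82.4, 79.8 and 67.0 CPM and at 80.7, 79.0 and 70.3 CPM, and was not called. Kdr, the main VEGF receptor, rose from 56.2, 54.2 and 72.0 CPM to 128, 141 and 100.4 CPM (log2 fold 1.02 ± 0.15, SE, adjusted p = 2.65e-04 in edgeR). Of 7 lymphatic genes 4 rose and 1 fell, with a median log2 fold of 1.07 (0.68 with scaling by total count only). At 14 days 4 were above sham, not the same 4 as those that rose. Prox1 rose but was not called against sham (adjusted p = 0.351 in edgeR), and Pdpn fell but was above it (0.00876). The lymphatic chemokine Ccl21a rose from 1.97, 1.71 and 2.82 CPM to 7.13, 18.6 and 24.7 CPM and Mmrn1 from 6.61, 4.41 and 4.35 CPM to 12.1, 20.3 and 31.8 CPM, both above sham at 14 days. Pdpn, which is also found on fibroblasts and macrophages of wounds, fell from 19.9, 18.4 and 13.2 CPM to 3.39, 5.19 and 6.87 CPM. Of 14 smooth muscle and pericyte markers 4 fell (28.6%) and 3 rose (21.4%), near the 26.8% and 25.1% of all tested genes. Their median log2 fold was 0.07, and −0.33 with scaling by total count only. Among the genes listed for pericytes the signs were mixed: Cspg4 and Notch3 fell, Pdgfrb was not called, and Rgs5 and Abcc9 rose. Rgs5 went from 134, 159 and 245 CPM to 444, 440.2 and 367 CPM. Abcc9 went from 90.0, 83.7 and 167 CPM to 321, 269.5 and 229.8 CPM. Both were called below their sham means of 364 and 326 CPM at 1 day. Neither was called apart from sham at 14 days (adjusted p = 0.533 and 0.5 in edgeR). Which cells carried these RNAs was not tested.

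The muscle's stress genes fell. Of 18 cardiac stress genes 14 fell and none rose (median log2 fold −1.69), and 5 were above sham at 14 days. Flnc, a filamin of the Z-disc, fell from 4202, 3030 and 2076 CPM to 222, 208 and 206 CPM (log2 fold −3.87 ± 0.27, SE, adjusted p = 4.35e-06 in edgeR). Xirp2, of the intercalated disc, fell from 6934, 6762 and 4611 CPM to 937, 1049 and 1302 CPM. Ankrd1, a mechanical stress gene, fell from 1654, 1381 and 1660 CPM to 548, 667 and 815 CPM and was still above the sham mean of 264 CPM (adjusted p = 0.0042). The natriuretic peptide gene Nppb fell from 456, 507 and 346 CPM to 123, 136 and 184 CPM, above a sham mean of 59.4 CPM (adjusted p = 0.00597). Nppa, the atrial form, was not called between both times, at 481, 388 and 374 CPM and 246, 312 and 469.9 CPM, and was above the sham mean of 28.6 CPM at 14 days (adjusted p = 0.00151). Myh7, the fetal myosin heavy chain, was likewise not called (231, 201 and 357 CPM against 206, 183 and 338 CPM), with a sham mean of 14.9 CPM. The groups of Nppa and of Myh7 overlapped.

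Most nuclear genes of energy supply were higher at 14 days than at 1 day, relative to the bulk of genes, but not higher than in sham. Of 50 nuclear genes of oxidative phosphorylation 38 rose and none fell (median log2 fold 0.59). With scaling by total count only 3 rose (median 0.22). Of 30 genes of fatty acid use 26 rose (median 0.74), and 10 with scaling by total count only. Of 17 tricarboxylic acid cycle genes 15 rose (median 0.56), and 2 with scaling by total count only. Against sham, the medians of these lists, in that order, were −0.89, −1.21 and −0.88 at 1 day and −0.32, −0.42 and −0.33 at 14 days. At 14 days 0, 1 and 0 of their genes were called above sham, and 8, 2 and 0 below it. Ucp3, a mitochondrial carrier of the fatty acid program, rose from 1.18, 1.07 and 4.66 CPM to 25.4, 23.4 and 14.8 CPM (log2 fold 3.31 ± 0.52, SE, adjusted p = 8.95e-04 in edgeR). Pdk4, which turns pyruvate away from oxidation, rose from 92.1, 53.5 and 74.6 CPM to 304, 249 and 223 CPM. Fabp3, the heart's fatty acid carrier, rose from 44.1, 35.3 and 70.3 CPM to 139, 122 and 121 CPM. These 3 genes kept their calls under total count scaling and without any 1 library, and none of them was called apart from sham at 14 days. The genes of the mitochondrial genome, with their ribosomal RNAs, took 59.1% ± 6.19 of counts at 1 day and 67.4% ± 2.10 at 14 days (SD, n = 3), a difference of 8.34 points (two-sided exact permutation p = 0.1, the smallest that 3 against 3 can give). The difference was 4.79 points without mouse 4 and 3.11 points without the ribosomal RNA genes (exact permutation p = 0.2). None of their 7 tested messenger RNAs was called.

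Of 21 calcium handling and ion channel genes 12 rose and 2 fell (median log2 fold 0.88). Against sham the list median was −1.11 at 1 day and −0.46 at 14 days, when none was called above sham and 3 below it. Pln (phospholamban, the brake of the calcium pump) was at 458, 517 and 1323 CPM in mice 4, 5 and 6 and at 2727, 2344 and 2030 CPM at 14 days. Kcnip2, of the fast outward potassium current, rose from 7.06, 4.57 and 18 CPM to 66.0, 55.3 and 40.1 CPM. Scn4b, a sodium channel beta subunit, rose from 1.06, 1.31 and 5.15 CPM to 12.9, 14.4 and 8.63 CPM (log2 fold 2.37 ± 0.50, SE, adjusted p = 0.00393 in edgeR). Mouse 6 was the highest 1-day mouse in all 3 genes, and none of them was called apart from sham at 14 days. Of 20 sarcomere genes 7 rose and 1 fell, with a median log2 fold of 0.32 that was −0.05 with scaling by total count only. Against sham the sarcomere median was −0.52 at 1 day and −0.23 at 14 days. Myh6, the adult myosin heavy chain, went from 3012, 2061 and 5221 CPM to 7983, 6113 and 5384 CPM (adjusted p = 0.0289), and its call was lost without mouse 4 (0.101), mouse 5 (0.094), library A (0.0893) or library B (0.0594). Without mouse 6 the sarcomere list had 13 risers and 1 faller.

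The 14-day libraries differed among themselves in muscle and scar genes. Library A was the highest and C the lowest in 48 of 50 oxidative phosphorylation genes, 26 of 30 of fatty acid use and 16 of 20 of the sarcomere, against 24.4% of all tested genes. The reverse held in 28 of 32 matricellular and elastic fibre genes and 13 of 15 late-scar markers, against 25.3% of all. Scar and muscle genes thus have a wide spread between these 3 libraries, which the standard errors above include.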

How the data were processed

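Total RNA of mouse left ventricle was measured by RNA sequencing, per the labels' protocols after TRIzol extraction, depletion of ribosomal RNA and a stranded library preparation. The authors deposited raw counts per gene, whole numbers that are not normalized. STAR 2.7.1a and GRCm38 (mm10) are named in the submitters' processing notes; no source used here gives the counter, the annotation or the strand setting. Genes that overlap others are therefore uncertain: of 199 named genes 63 share exonic bases with another gene and 19 share at least 10%, among them Sfrp2, Spp1, Tgm2, Ccn2, Fstl3, Pln, Tgfb3, Nppa, Myh7 and Fabp3, and the Hbb, H2 and Ccl21a genes have near-identical copies.

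Groups came from the labels. Nothing says how the 3 mice of a group were raised or operated, so p-values measure the spread between these samples. All replicate pairs of a group differed beyond sampling noise (chi-square over its degrees of freedom, 7.28 to 97.5), so each library counted as 1 sample. Positions came from GENCODE M21, which held 36429 of 38293 genes. Counts were fitted with edgeR 4.0.16 in R 4.3.3 (TMM scaling, filterByExpr, robust glmQLFit, glmQLFTest) with all 9 libraries in 1 fit. CPM uses TMM-scaled library sizes. Ratios of low counts have 95% exact intervals that cover counting error only. Shares were compared by exact permutation.

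The members and the 51 gene lists were chosen with earlier results of these data known. Per direction the rule named the 12 called genes of largest log2 fold that reach a mean of 10 CPM in either group, whose groups do not overlap and whose symbol is not clone-style. Per list with at least 3 tested genes it named, by CPM per kilobase of exons, the top 2 called members in the commoner direction and the top 1 in the rarer. It gave 131 genes, some of which are not reported here, and 68 more were chosen after their values were seen. Promoters are RefSeq's (GRCm38.p6), matched by gene for 10266 of 14124 genes. Alternatives were other scalings, filters, fits and tools (DESeq2 1.42.0, limma 3.58.1), a GC and length offset and each library left out. Counts for 14 days against 1 day (13960 genes) were also simulated from the 1-day means, with 49 or 50 genes changed at each size of fold. There 26.0% of true log2 folds of 0.5 were recovered, 78.0% of those of 1, 95.9% of those of 2 and 100% of those of 3. Of 159 calls 10 were false. In the data 51.9% of tested genes were called, so these rates hold for a setting with few changed genes and not for the comparison above. Figures were drawn with matplotlib 3.10.9.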

Additional observations from a re-analysis of the deposited data

How the results depend on the processing

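No paired analysis was possible because the groups share no replicate numbers. Called genes numbered 5604 (without mouse 4) to 8360 (without mouse 6) when 1 library was left out. A test against a 2-fold change called 626 genes (257 higher, 369 lower), and scaling by total count only called 1066 higher and 5469 lower. DESeq2's Wald test called 6961 and limma-voom 7470. Of 190 called named genes, 153 kept their call and direction under all 16 settings besides the 2-fold test. The mitochondrial share differed by 3.11 points without ribosomal RNA genes (exact permutation p = 0.2). At this depth 2 of 14 T and NK cell markers and 3 of 8 mast cell markers passed the count filter.

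With scaling by total count only the log2 fold changed sign in Zbtb46 (−0.28), Prdx1 (−0.06), Tgfbr3 (−0.04), Acta2 (−0.32) and Pecam1 (−0.40). List medians became −0.06 for resident macrophages, −0.19 for Trem2 macrophages, −0.30 for mast cells, −0.31 for blood endothelium, −0.33 for smooth muscle, −0.21 for epicardium, −0.04 for atrial, −0.18 for interferon, −0.11 for basement membrane, −0.24 for crosslinking, −0.14 for TGF-beta and −0.05 for sarcomere genes. A filter of 1 CPM, which tests fewer genes, gave −0.22 for mast cells, −0.15 for epicardium and −0.03 for atrial genes. The GC and length offset gave −0.01 for Acta2, 0.12 for Myh7 and 0.10 for the clock list, limma-voom 0.10 for the clock list, and no filter −0.01 for Pecam1. With 1 library left out, values ran from −0.01 to 0.21 for Zbtb46, −0.63 to 0.04 for Fn1, −0.02 to 0.21 for Acta2, −0.42 to 0.17 for Myh7 and −0.08 to 0.09 for Pecam1. List medians then ran from −0.03 to 0.14 for smooth muscle, −0.09 to 1.30 for epicardium, −0.07 to 0.18 for crosslinking, −0.01 to 0.26 for TGF-beta and −0.21 to 0.54 for the clock. Apart from the filter, the cause was not tested.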

Other observations

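The largest fitted rise of all was that of C1qtnf3, a secreted protein of the C1q and tumour necrosis factor family, which has less than 10 CPM at 14 days and was picked after its values were seen. It had 0 reads in mice 4, 5 and 6 and 94, 294 and 323 reads in libraries A, B and C (3.25, 8.62 and 13.2 CPM). The lower end of the 95% interval of its ratio, which covers counting error only, was 202. Derl3, of the disposal of misfolded proteins from the endoplasmic reticulum, showed the opposite course. It was at 11.5, 7.62 and 2.11 CPM at 1 day and at 0, 0.0293 and 0.0818 CPM at 14 days (747 reads against 3, ratio 238, interval from 81.0 to 1154.3).

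Of 16 circadian clock genes 2 rose (12.5%) and 3 fell (18.8%), against 25.1% and 26.8% of all tested genes (median log2 fold −0.07). Npas2, an activator of the clock loop, rose from 2.51, 1.51 and 1.12 CPM to 3.81, 5.48 and 4.99 CPM, and Arntl, its partner, from 7.26, 5.28 and 2.64 CPM to 8.97, 14.6 and 13.3 CPM. The call of Arntl was lost with scaling by total count only (log2 fold 0.82, adjusted p = 0.1 in edgeR). Per2, a repressor, fell from 5.5, 8.66 and 9.68 CPM to 4.02, 1.67 and 2.86 CPM. Without mouse 6 the list had 6 risers and 2 fallers and a median of 0.54. The hour of collection is not given in the labels.

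Genes that rose had a median GC content of 46.9%, those that fell 52.6% and all tested genes 49.5%. Of 442 tested long noncoding genes 127 rose and 44 fell, where 25.1% of all tested genes rose and 26.8% fell. The share of long noncoding genes that rose was thus near that of all genes, and the share that fell was below it.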
